A study of Mus musculus with 1920 samples.

Results

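Cpm, Slc28a2, Bcl6 and 2210407C18Rik are 4 of the 55471 genes listed in a count table of single intestinal stem cells (ISCs). Ranked from the lowest fitted log2 difference of 20957 genes tested, Slc28a2 stood at 0.754%, Cpm at 1.76%, Bcl6 at 3.07% and 2210407C18Rik at 3.42%. They were chosen because they were lower in aged mice. That choice used the comparison of ages itself, so the difference between ages is given for these genes as a description, without a test. The cells were taken from small intestinal crypts of 3 young and 4 aged mice. All mice were B6.129P2-Lgr5tm1(cre/ERT2)Cle/J animals, in which a green fluorescent protein and a tamoxifen-inducible Cre are expressed from the Lgr5 locus. The cells were sorted for a high fluorescent signal and sequenced cell by cell with a full-length (Smart-seq2) method. The age in weeks was not stated for the sequenced mice themselves, and the allele is the only one named for the mice. A cell was kept when at least 1000 genes had a read, which left 1836 of 1920 cells.

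Cpm encodes carboxypeptidase M, a membrane-anchored enzyme that removes a terminal arginine or lysine from peptides outside the cell. Slc28a2 encodes a sodium-coupled transporter that brings purine nucleosides and uridine into the cell, and is known from the intestinal epithelium. Bcl6 is a zinc finger repressor of transcription, best known from germinal center B cells, where it works with corepressors such as Ncor1 and Bcor. 2210407C18Rik carries a RIKEN clone name, is annotated as protein coding, and no function is stated for it here. Lgr5, the receptor by which the cells were sorted, marks the stem cells at the crypt base, which give rise to absorptive enterocytes and to secretory Paneth, goblet, enteroendocrine and tuft cells.

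The genes lie on 4 chromosomes of GRCm38. Cpm (ENSMUSG00000020183) is on the plus strand of chromosome 10 from 117629500 to 117687352, Slc28a2 (ENSMUSG00000027219) on the plus strand of chromosome 2 from 122426477 to 122461137, Bcl6 (ENSMUSG00000022508) on the minus strand of chromosome 16 from 23965052 to 23988852, and 2210407C18Rik (ENSMUSG00000037145) on the minus strand of chromosome 11 from 58608204 to 58616075. Their promoters, 250 bases before to 50 bases after the start in RefSeq (GRCm38.p6), are shown because the genes were chosen for a like difference with age and can be compared in the sequence in front of them. Each is written 5′ to 3′ on the gene's own strand, with the letters of a matched motif in capitals.
Cpm (chr10:117629250-117629549, plus strand): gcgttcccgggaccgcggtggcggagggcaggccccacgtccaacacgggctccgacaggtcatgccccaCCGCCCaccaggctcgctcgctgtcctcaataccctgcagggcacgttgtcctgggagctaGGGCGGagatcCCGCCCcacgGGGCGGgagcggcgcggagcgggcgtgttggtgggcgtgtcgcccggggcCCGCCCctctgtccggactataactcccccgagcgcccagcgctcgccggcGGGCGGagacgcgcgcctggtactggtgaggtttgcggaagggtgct
Slc28a2 (chr2:122426185-122426484, plus strand): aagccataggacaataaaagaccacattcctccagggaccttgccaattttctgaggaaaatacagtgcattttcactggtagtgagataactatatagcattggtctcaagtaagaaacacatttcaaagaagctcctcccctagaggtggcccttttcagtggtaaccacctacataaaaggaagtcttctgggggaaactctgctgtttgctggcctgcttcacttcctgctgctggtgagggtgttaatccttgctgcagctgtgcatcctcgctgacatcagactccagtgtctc
Bcl6 (chr16:23988803-23989102, minus strand): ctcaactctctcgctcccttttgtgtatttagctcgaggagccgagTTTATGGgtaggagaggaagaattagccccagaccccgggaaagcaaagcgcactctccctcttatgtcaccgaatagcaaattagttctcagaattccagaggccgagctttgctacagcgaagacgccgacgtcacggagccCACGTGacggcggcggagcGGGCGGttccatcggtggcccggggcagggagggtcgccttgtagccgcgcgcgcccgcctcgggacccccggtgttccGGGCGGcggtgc
2210407C18Rik (chr11:58613443-58613742, minus strand): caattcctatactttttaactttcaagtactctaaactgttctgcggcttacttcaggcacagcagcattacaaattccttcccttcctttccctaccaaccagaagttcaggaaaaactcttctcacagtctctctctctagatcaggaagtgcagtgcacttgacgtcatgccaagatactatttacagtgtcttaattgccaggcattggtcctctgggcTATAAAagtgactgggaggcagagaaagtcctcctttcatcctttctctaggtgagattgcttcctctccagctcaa

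The Cpm promoter was 73.7% G and C with 37 CpG dinucleotides, and the Bcl6 promoter 62.7% with 31, whereas the promoter of Slc28a2 was 46.7% with 1 CpG and that of 2210407C18Rik 44.0% with 2. The median over all promoters was 52.7% and 7 CpG. Motifs were searched on both strands. The GC box (GGGCGG), which 35.7% of the 32851 promoters hold, was found at 6 positions in Cpm and 2 in Bcl6, the E-box (CACGTG, 7.15% of promoters) and the CDX site (CCATAAA, 2.75%) in Bcl6, and the TATA box (TATAAA, 13.6%) in 2210407C18Rik. None of these motifs was found in the window of Slc28a2, and neither the TCF site (ATCAAAG, 3.73%) nor the HNF4 site (CAAAGTCCA, 0.475%) in any of these windows. The RefSeq start of 2210407C18Rik lies 2583 bases from the start in GENCODE, and that of Slc28a2 42 bases. RefSeq gives Bcl6 another start 7569 bases from the GENCODE start, and no motif of the search was found in its window.

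Reads on genes summed over the kept cells ran from 49447464 to 134408884 per mouse, with medians of 8659 to 9949.5 detected genes per cell, and 0 cell names were found in more than 1 mouse. A read of Lgr5 was found in 93.1% to 99.5% of the cells of each mouse. Because the method has no molecular identifiers, intervals and shares given below cover counting error only. By a numeric code given with each cell, taken here as the sequencing lane, the cells fell in 5 groups, of which 3 held both ages. These groups are called lanes below, and whether they were also the plates of sorting and library preparation was not stated. Most listed markers of other epithelial cell types were higher in aged mice, but the summed levels overlapped between the ages and the lists were not tested. Over all 20957 genes tested 10834 were higher in aged mice. Of 12 enterocyte markers 11 were higher in aged mice (summed level 1172 to 2834 CPM, against 1224 to 1457 CPM in young mice, where CPM is reads per 1000000 reads on genes), as were 9 of 10 Paneth markers (14058 to 31026 against 8378 to 28191 CPM) and 8 of 8 goblet markers (622 to 2897 against 410.2 to 1157 CPM). Of 15 ISC markers 2 were higher (14885 to 24628 against 18706 to 23309 CPM), none of these markers was at 0, and 7 of 10 enteroendocrine and 7 of 9 tuft markers were higher in aged mice. The 8 immune markers summed to at most 4.52 CPM and the 7 stromal markers to at most 0.932 CPM in any mouse. Their part in the results by age was not tested, but values in ISC-led cells, those in which the ISC list had the highest mean log2(CPM + 1) of 8 marker lists, are given beside them.

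Cpm was lower in all aged mice. Its summed counts were 68.1, 98.2 and 89.2 CPM in young mice 1, 2 and 3, and 25.8, 59.5, 12.0 and 19.5 CPM in aged mice 1, 2, 3 and 4. The ages did not overlap, and aged mouse 2 lay closest to the young mice. The means were 85.1 ± 15.5 CPM (SD, n = 3) and 29.2 ± 20.9 CPM (SD, n = 4), with a fitted log2 difference of -1.49 (SE 0.44). Fewer cells had a read of Cpm in aged mice, and those that had one held fewer. A read was found in 80.0%, 91.9% and 89.1% of young cells and in 49.7%, 78.5%, 42.9% and 52.2% of aged cells, and the median of the cells with a read was 64.1 to 81.6 CPM in young and 18.0 to 39.6 CPM in aged mice. Neither measure overlapped between the ages.

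Slc28a2 was lower in all aged mice as well. Its level was nearly the same in the young mice, 23.5, 24.1 and 24.5 CPM, and was 10.3, 3.47, 1.25 and 8.15 CPM in aged mice 1 to 4, without overlap (24.0 ± 0.472 against 5.78 ± 4.15 CPM, SD, n = 3 and 4). The fitted log2 difference was -2.0 (SE 0.56). The share of cells with a read was 59.4%, 62.2% and 60.1% in young mice, and 24.9%, 10.8%, 7.41% and 9.02% in aged mice. For the lowest of these, aged mouse 3 with 14 of 189 cells, the exact 95% binomial interval was 4.11% to 12.1%. Here, in contrast to Cpm, the level in the cells that had a read overlapped between the ages, with medians of 24.7, 28.9 and 24.9 CPM in young and 25.6, 19.8, 12.3 and 21.5 CPM in aged mice. The 1732 of 1836 kept cells that had at least 100000 reads were also thinned to that number. The share of these with a read was 50.6% ± 2.33 (SD, n = 3) in young and 11.2% ± 8.24 (SD, n = 4) in aged mice.

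**Figure D1:**
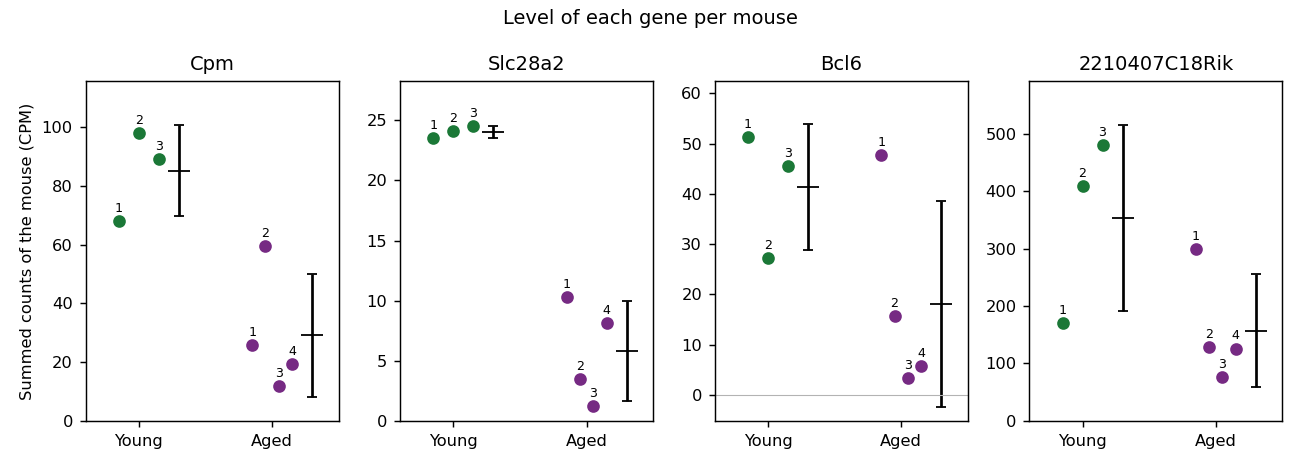
Summed counts of each gene in each mouse (CPM, vertical axis). Numbered points are mice, and bars are the mean with SD of 3 young and 4 aged mice. For Cpm and Slc28a2 all aged mice lie below all young mice, whereas aged mouse 1 lies within the young range for Bcl6 (47.8 CPM) and 2210407C18Rik (299.7 CPM).

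The reads that aged cells did have of Slc28a2 were held by few cells, and in aged mouse 4 mostly not by ISC-led cells. Of the 1071 reads of aged mouse 4, 135 lay in its 267 ISC-led cells, of which 16 had a read. Its 40 enterocyte-led cells held 519 reads in 15 cells, and 415 reads lay in a single Paneth-led cell, 38.7% of all reads of the mouse. In ISC-led cells alone its level was 1.25 CPM, not 8.15. In young mouse 1 a single goblet-led cell likewise held 307 reads, 26.4% of those of the mouse. The 5 cells with most reads held 44.8%, 12.1% and 12.4% of the reads in young mice and 45.8%, 71.0%, 83.9% and 79.7% in aged mice, and without them the level was 13.0 to 21.4 CPM in young and 0.201 to 5.56 CPM in aged mice.

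**Figure D2:**
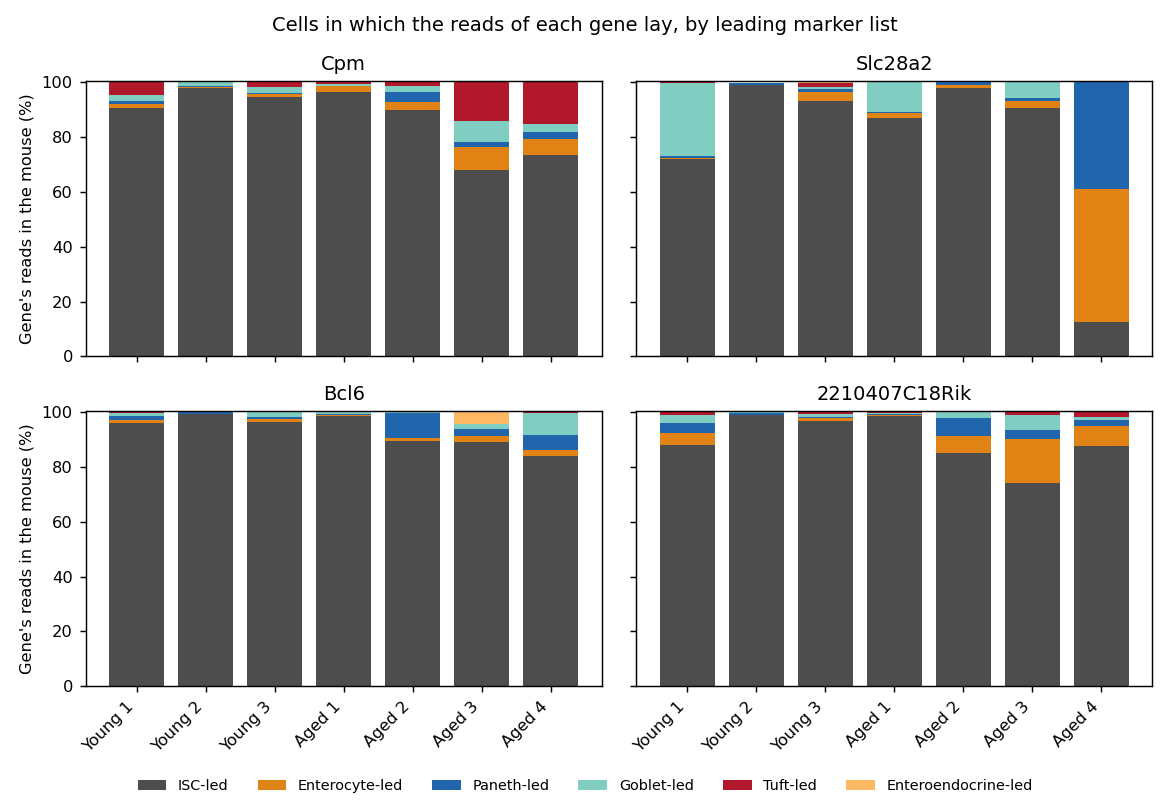
Reads of each gene in each mouse (percent, stacked bars), divided by the marker list that led the cell. ISC-led cells held most of the reads of each gene in each mouse, with the exception of Slc28a2 in aged mouse 4, where they held 12.6%.

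Slc28a2 has a close copy, Gm14085, on the same chromosome and strand from 122484941 to 122528040. Of the 4228 stretches of 50 bases in its transcripts, 35.4% are also found in Gm14085, so reads from these could not be placed with certainty, whereas the other 3 genes share none with any gene. Gm14085 itself had 0 to 29 reads per mouse, at most 0.216 CPM. The pseudogene Gm14086 overlaps Slc28a2 on the same strand and had 19 reads in all, against 9613 of Slc28a2.

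Bcl6 and 2210407C18Rik overlapped between the ages in summed counts, in both cases through aged mouse 1. The level of Bcl6 was 51.4, 27.3 and 45.5 CPM in young mice and 47.8, 15.6, 3.30 and 5.75 CPM in aged mice 1 to 4, so aged mouse 1 stood above young mice 2 and 3 (41.4 ± 12.6 against 18.1 ± 20.5 CPM, SD, n = 3 and 4, log2 difference -1.17, SE 0.74). Without aged mouse 1 the log2 difference of Bcl6 was -2.29. In aged mouse 1 56.4% of the reads lay in 5 cells, as did 58.6% in young mouse 1, and without these 5 cells of each mouse the ages no longer overlapped, with 21.3 to 38.2 CPM in young and 0.760 to 20.9 CPM in aged mice. The share of cells with a read of Bcl6 was 57.7% to 62.7% in young and 16.4% to 52.9% in aged mice. The median of the cells with a read was 25.0 to 41.0 CPM in young and 8.16 to 23.3 CPM in aged mice. Neither of these measures of Bcl6 overlapped between the ages. The level of 2210407C18Rik was 171, 408 and 480.3 CPM in young and 299.7, 128, 75.6 and 126 CPM in aged mice, where aged mouse 1 stood above young mouse 1 (353 ± 162 against 157 ± 98.0 CPM, SD, n = 3 and 4, log2 difference -1.12, SE 0.45). Reads of this gene were found in 90.0% to 98.1% of young and 76.7% to 94.7% of aged cells, so its lower level came with fewer reads per cell, with medians of 194 to 425 CPM in young and 66.0 to 239 CPM in aged cells that had a read.

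**Figure D3:**
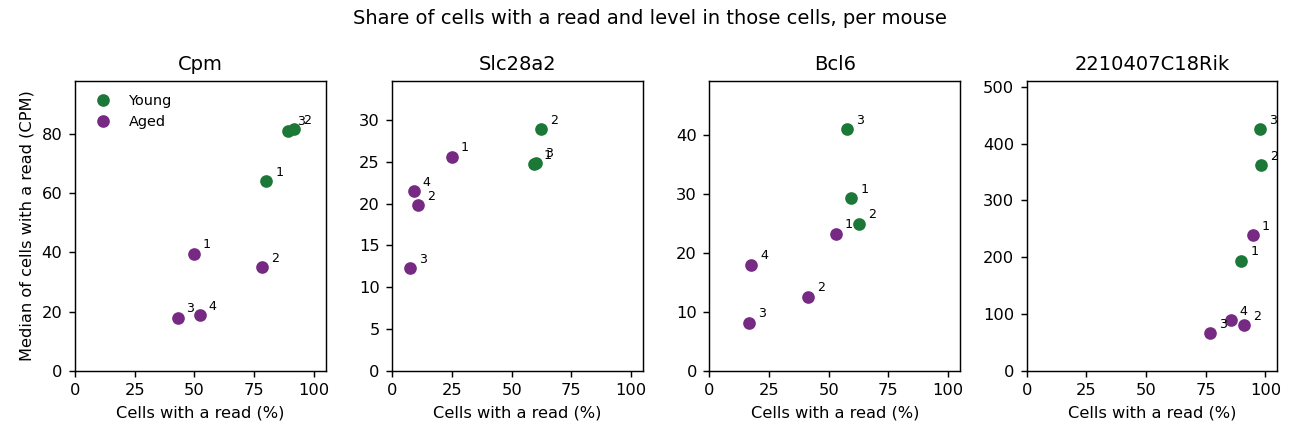
Share of cells with a read (percent, horizontal axis) against the median level of the cells with a read (CPM, vertical axis). Each numbered point is a mouse. Aged mice lie lower on both axes for Cpm and Bcl6, mainly to the left for Slc28a2 (7.41% to 24.9% of cells against 59.4% to 62.2%), and mainly lower for 2210407C18Rik.

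Thus 2 of the 4 genes did not overlap between ages in summed counts. Over all 20957 genes tested 5.92% did not overlap and 4.09% were lower in aged mice without overlap, a background from which nothing is read here because the genes were chosen on this comparison. A read of all 4 genes was found in 26.2%, 40.3% and 35.9% of cells of young mice and in 10.1%, 5.38%, 1.06% and 1.91% of cells of aged mice. In ISC-led cells alone the young mean was 2.89 times the aged mean for Cpm, 5.62 times for Slc28a2, 2.28 times for Bcl6 and 2.24 times for 2210407C18Rik, against 2.91, 4.16, 2.28 and 2.25 times in all kept cells. Within the lanes that held both ages, Cpm, Slc28a2 and 2210407C18Rik were lower in the aged mouse in 3 of 3 lanes, and Bcl6 in 2. Lanes 1 and 3 held the same young mouse, mouse 2, so the lanes are not 3 separate pairs of mice. In lane 1 Bcl6 was at 27.6 CPM in young mouse 2 and 47.8 CPM in aged mouse 1. Lanes 4 and 5 held aged mouse 4 and young mouse 3 alone, so lane and age cannot be told apart there.

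Levels of different genes were compared per length, as reads per kilobase of exon and 1000000 reads (RPKM). 2210407C18Rik was highest, with 252 ± 116 RPKM (SD, n = 3) in young and 112 ± 70.1 RPKM (SD, n = 4) in aged mice. Cpm followed with 14.3 ± 2.59 and 4.90 ± 3.51 RPKM, then Bcl6 with 6.18 ± 1.87 and 2.70 ± 3.06 RPKM and Slc28a2 with 5.71 ± 0.112 and 1.37 ± 0.985 RPKM. In young mice the first 3 ranks did not overlap, whereas Bcl6 (4.07 to 7.67 RPKM) and Slc28a2 (5.59 to 5.82 RPKM) did not differ beyond their spread. In aged mice 2210407C18Rik (54.0 to 214 RPKM) still stood apart, whereas Cpm (2.01 to 9.97 RPKM), Bcl6 (0.492 to 7.14 RPKM) and Slc28a2 (0.296 to 2.44 RPKM) overlapped. Lgr5 itself had 40.0 ± 6.41 RPKM in young and 28.5 ± 8.11 RPKM in aged mice.

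The next question was whether the level of the 4 genes depends on the lineage and cell cycle state of a cell. This was compared within mice, which the choice of the genes by age did not use. Counts were summed per mouse and class of cells and tested with edgeR's quasi-likelihood test with the mouse as a block, over all genes. A mouse entered with at least 5 cells in both classes. Of 24 differences (4 genes in 6 comparisons) 5 passed an adjusted p of 0.05 by edgeR, 8 by DESeq2 and 6 by limma voom, where edgeR called 19.3% of all genes in enterocyte-led, 14.0% in Paneth-led and 2.32% in goblet-led cells, 10.3% by S-phase genes, 15.7% by G2 and mitosis genes and 12.2% by Lgr5. Over all genes DESeq2 called from 1125 of 16995 in goblet-led to 4150 of 16681 in enterocyte-led cells. In the same 2 comparisons limma voom called 472 and 3227. All 5 called by edgeR were lower levels than in the ISC-led cells or the lower tercile they were compared with.

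Cpm was lower in Paneth-led cells. These 136 cells had Paneth cell genes as the leading list, and Cpm stood at 23.7, 27.0 and 29.8 CPM (after TMM scaling) in those of young mice against 46.8, 66.1 and 64.4 CPM in ISC-led cells, and at 3.15, 19.9, 4.75 and 9.71 CPM in those of aged mice 1 to 4 against 18.0, 45.6, 7.14 and 12.7 CPM. It was lower in 7 of 7 mice, by 1.05 on the log2 scale (log2 difference -1.05, SE 0.21, edgeR adjusted p = 0.00287), where 6.37% of all genes passed in this direction and 7.66% as higher. Of the other genes Bcl6 (-0.53, SE 0.28, edgeR adjusted p = 0.236), 2210407C18Rik (-0.46, SE 0.19, 0.125) and Slc28a2 (-0.49, SE 0.78, 0.737) did not pass. Slc28a2 was lower in 6 of 7 mice. Its difference of 5.99 in aged mouse 4 came from 417 reads in Paneth-led cells, 415 of them in 1 cell. A read of Slc28a2 was found in 21.4% ± 18.3 of Paneth-led and 33.5% ± 26.8 (SD, n = 7) of ISC-led cells, lower in 7 of 7 mice. 2210407C18Rik passed as lower at 100000 reads per cell (-0.68, edgeR adjusted p = 0.0149) and without young mouse 1 (-0.64, edgeR adjusted p = 0.0288). Paneth genes took 271004 to 762331 of each 1000000 scaled reads in these cells, so the comparison depends on scaling. TMM and total counts differed by 1.08 on the log2 scale here, and with total counts 4.01% of called genes were higher in Paneth-led cells in place of 54.6%, and all 4 genes passed as lower (Cpm -2.11, Slc28a2 -1.66, Bcl6 -1.60 and 2210407C18Rik -1.54). So did 11341 of all 16755 genes tested. With RLE scaling 67.4% of called genes were higher. The difference of Cpm passed under all 16 alternatives. A read of Cpm was found in 51.9% ± 24.9 of Paneth-led and 70.2% ± 19.6 (SD, n = 7) of ISC-led cells, lower in 7 of 7 mice, at median depths of 231439 and 318888 reads per cell.

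Bcl6 was lower in enterocyte-led cells, in 5 of 5 mice. Its level was 28.2 CPM in young mouse 1 and 22.9 CPM in young mouse 3, against 48.5 and 43.6 CPM in their ISC-led cells, and 4.42, 1.55 and 3.61 CPM in aged mice 2, 3 and 4 against 15.6, 3.29 and 5.61 CPM. The log2 difference was -1.03 (SE 0.31, edgeR adjusted p = 0.0323), and 9.28% of all genes passed in this direction. The call rests on few cells, 5 to 40 enterocyte-led cells with 5 to 53 reads of Bcl6 per mouse. It did not pass when young mouse 1, aged mouse 2 or aged mouse 4 was left out. Nor did it pass with limma voom, at 100000 reads per cell or with cells near the boundary of a class left out. At 100000 reads per cell young mouse 1 had 4 enterocyte-led cells and did not enter. The share of cells with a read of Bcl6 went the other way, with 46.4% ± 30.1 of enterocyte-led and 38.0% ± 21.2 (SD, n = 5) of ISC-led cells, higher in 4 of 5 mice. 2210407C18Rik pointed the other way, at 198 to 471 CPM in enterocyte-led and 62.7 to 461 CPM in ISC-led cells (log2 difference 0.93, SE 0.34, edgeR adjusted p = 0.0697, DESeq2 adjusted p = 0.0271), higher in 4 of 5 mice. It passed by edgeR with cells near the boundary of a class left out (1.13, edgeR adjusted p = 0.00907), without the filter on low counts (0.88, edgeR adjusted p = 0.0333) and without young mouse 3 (1.33, edgeR adjusted p = 0.0018). Cpm did not differ beyond its error (0.19, SE 0.29, edgeR adjusted p = 0.682), and its sign was negative with total counts and at 100000 reads per cell. Slc28a2 was higher in 2 and lower in 3 mice, from -2.24 to 6.45, the latter in aged mouse 4.

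In 47 goblet-led cells, compared in 4 mice, none of the 4 genes passed by edgeR, DESeq2 or limma voom, and 1 had an edgeR unadjusted p under 0.05, where 2.32% of all genes passed by edgeR. Of all 16995 genes 2239 had such an unadjusted p, DESeq2 called 1125 and limma voom 472. The member with such a p was 2210407C18Rik, lower in 4 of 4 mice (-0.90, SE 0.27, edgeR adjusted p = 0.149). In 2 of these mice no read of Slc28a2 was found in goblet-led cells. Tuft-led cells were too few for a test. There were 15 of them in 6 mice, all with a read of Cpm. Its level in them was 404 CPM in young mouse 1, 155 in young mouse 3, and 28.1, 203, 220.4 and 118 CPM in aged mice 1 to 4, against 69.4, 91.4, 26.4, 67.3, 10.1 and 17.5 CPM in the ISC-led cells of the same mice. These values rest on 1 or 2 cells per mouse, with the exception of aged mouse 4 with 7 cells, and in young mouse 1 a single cell held 157 of the 162 reads, so no direction is read from them.

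Cpm was also lower in the ISC-led cells that were richest in transcripts of the cell cycle. ISC-led cells of each mouse were ranked by 17 S-phase genes and by 20 genes of G2 and mitosis, and the upper tercile was compared with the lower. By G2 and mitosis genes Cpm was at 54.6, 77.0 and 60.8 CPM in the upper and 101, 124 and 91.7 CPM in the lower tercile of young mice, and at 17.1, 35.7, 12.1 and 10.5 CPM against 31.3, 133, 18.5 and 26.6 CPM in aged mice. The difference had the same direction in 7 of 7 mice, with a log2 difference of -0.98 (SE 0.16, edgeR adjusted p = 0.00207), where 6.7% of all genes passed as lower. It passed under all 16 alternatives. By S-phase genes the log2 difference was -0.87 (SE 0.20, edgeR adjusted p = 0.0202), again in 7 of 7 mice, from -0.40 in young mouse 3 to -2.17 in aged mouse 2, and 3.82% of all genes passed as lower and 6.44% as higher. Without aged mouse 1 the adjusted p of edgeR was 0.0517, and it passed in the other 15 alternatives. The share of cells with a read of Cpm did not follow this difference, with 72.8% ± 20.2 in the upper and 69.2% ± 21.4 (SD, n = 7) in the lower tercile by G2 and mitosis genes. The upper terciles of both scores shared 208 of 516 cells, so these results are not independent. Median reads per cell were 319154 in the upper and 314706 in the lower tercile by G2 and mitosis genes, while median detected genes were 9947 and 8448. The summed ISC markers were lower in the upper tercile in 7 of 7 mice (15854 to 23292 against 20773 to 27341 CPM), as were the summed Paneth markers (522 to 1047 against 909 to 1327 CPM). The part of these in the result was not tested.

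2210407C18Rik was slightly lower in the upper tercile by G2 and mitosis genes, in 6 of 7 mice, with a log2 difference of -0.28 (SE 0.08, edgeR adjusted p = 0.0465). This call was lost in 10 of 16 alternatives, among them each mouse left out in turn with the exception of aged mouse 1. By S-phase genes its level did not pass (0.23, SE 0.14, edgeR adjusted p = 0.354), while a read was found in 96.0% ± 4.43 of cells of the upper and 81.2% ± 13.0 (SD, n = 7) of the lower tercile, higher in 7 of 7 mice. Median detected genes were also higher in this upper tercile, 9864 against 8358, at 320194 and 321822 reads per cell. Their part in the share was not tested. Slc28a2 (-0.39, SE 0.26) and Bcl6 (-0.29, SE 0.23) did not pass by G2 and mitosis genes, although Slc28a2 did at 100000 reads per cell (-0.74, edgeR adjusted p = 0.0204). By S-phase genes they had log2 differences of 0.00 (SE 0.23) and -0.38 (SE 0.37).

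By the Lgr5 level of a cell, over all kept cells, none of the 4 genes passed by edgeR, where 12.2% of all genes did (4.59% higher and 7.65% lower), but 3 had an unadjusted p under 0.05 and DESeq2 and limma voom called 2 each. Of all 17199 genes 5043 had an edgeR unadjusted p under 0.05, DESeq2 called 3776 and limma voom 2499. Cpm was higher in the Lgr5-rich tercile in 6 of 7 mice (0.78, SE 0.23, edgeR adjusted p = 0.0517, DESeq2 adjusted p = 0.00755), 2210407C18Rik in 6 of 7 (0.61, SE 0.20, edgeR adjusted p = 0.072, DESeq2 adjusted p = 0.0191) and Bcl6 in 6 of 7 (0.73, SE 0.32, edgeR adjusted p = 0.162). The difference of Slc28a2 was -4.97 in aged mouse 4 and 2.69 in aged mouse 3, the ends of its range. Cells of other leading lists made up 211 of 614 cells of the Lgr5-poor tercile and 15 of 611 of the Lgr5-rich tercile. With total counts in place of TMM, from which TMM differed by -0.224 on the log2 scale in this comparison, 2 of the 4 genes passed (3060 of 17199 over all genes), and 76.7% in place of 37.5% of called genes were higher. The difference between both scalings was 0.289 for enterocyte-led and 0.161 for goblet-led cells, -0.0728 by S-phase genes and -0.0123 by G2 and mitosis genes, with 26.8% in place of 51.9% of called genes higher in enterocyte-led cells and 75.1% in place of 62.8% by S-phase genes.

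None of the 24 class differences was found to differ between young and aged mice by edgeR, DESeq2 or limma voom (0 of 24 each). Over all genes edgeR called 0.0% in these interaction tests, but 0.00588% in goblet-led cells and 0.00581% by Lgr5. DESeq2 called 0 by S-phase genes to 22 of 16995 in goblet-led cells, and limma voom at most 1 of 17199, by Lgr5. An unadjusted p under 0.05 was found by edgeR for 412 of 16995 genes (goblet-led) to 914 of 16681 (enterocyte-led). By DESeq2 it was 635 and 1118 in these 2 comparisons, and by limma voom 510 of 16140 (by S-phase genes) to 1041 of 16681. Of the 24, 1 had such a p by edgeR, 1 by DESeq2 and 4 by limma voom. The interaction with such a p by edgeR was that of Bcl6 by S-phase genes, where the difference was 1.56 higher in aged mice (SE 0.57, edgeR adjusted p = 0.999), with -2.27, -0.66 and -0.83 in young mice and -0.57, 0.67, 1.80 and 0.00 in aged mice.

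**Figure D4:**
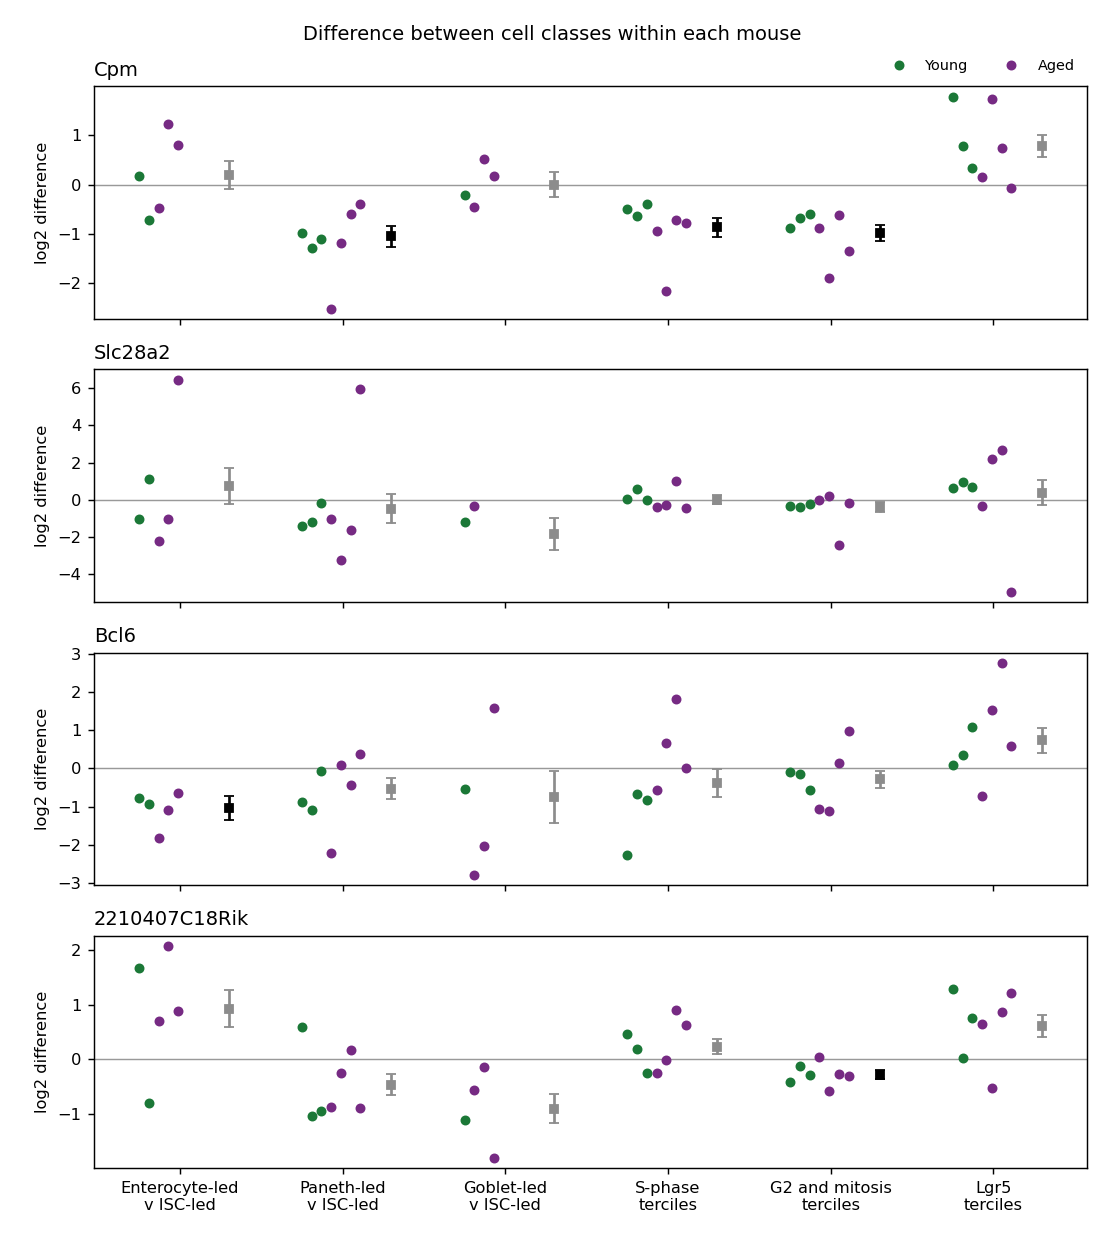
Log2 difference between cell classes within each mouse for the 4 genes (points, young and aged mice) in 6 comparisons, with the fitted difference and its SE (squares, black where the edgeR adjusted p was under 0.05). The squares of Cpm are black for Paneth-led cells (-1.05) and for both cell cycle scores (-0.87 and -0.98), with all 7 mice below 0.

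The families of the 4 genes were compared between ages to see whether they share the difference. Of 55 family members listed, 41 passed the filter on low counts, of which 24 were higher and 17 lower in aged mice, and the median log2 difference was 0.02 (0.01 over all 20957 genes tested). None passed by edgeR (0.0% of all genes did) or DESeq2 (0.845%), and 4 had an unadjusted p under 0.05 by edgeR (5.24% of all genes, and 2.54% as lower in aged mice). Among the carboxypeptidases, Cpd, which cleaves peptides in the secretory pathway, was at 53.2 ± 9.59 CPM (SD, n = 3) in young and 55.9 ± 17.3 CPM (SD, n = 4) in aged mice, and Cpn1, the catalytic subunit of a plasma carboxypeptidase, at 26.6 ± 9.97 and 27.4 ± 15.9 CPM. Among the nucleoside transporters the equilibrative carriers Slc29a1 (43.6 ± 11.0 against 51.8 ± 10.1 CPM) and Slc29a3 (28.5 ± 8.17 against 23.2 ± 4.44 CPM) were most abundant.

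The genes of purine metabolism held 3 of the 4 family members with an unadjusted p under 0.05. Xdh, the oxidase that makes uric acid, was at 25.5 ± 4.03 CPM (SD, n = 3) in young and 36.5 ± 8.02 CPM (SD, n = 4) in aged mice (log2 difference 0.57, edgeR adjusted p = 0.828). Gda, which deaminates guanine, was at 12.3 ± 3.71 and 30.3 ± 17.6 CPM (1.36, edgeR adjusted p = 0.864), and Adora1, an adenosine receptor, at 17.4 ± 11.3 and 8.49 ± 3.20 CPM (-0.99, edgeR adjusted p = 0.936). Of the corepressors of Bcl6, Ncor1 was at 190.2 ± 28.5 and 188 ± 37.4 CPM and Bcor at 53.2 ± 6.22 and 51.1 ± 10.5 CPM. Among genes that Bcl6 is known to repress in B cells, 4 of 9 tested were higher and 5 lower in aged mice. Bcl2, an inhibitor of cell death, was at 33.6 ± 15.8 and 18.6 ± 5.88 CPM (-0.81, edgeR adjusted p = 0.904).

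Genes next to the 4 genes lay on both sides of 0. Of 117 genes tested that start within 1 Mb of a member, 58 were higher and 59 lower in aged mice, 0 passed by edgeR or DESeq2 and 5 had an unadjusted p under 0.05 by edgeR (0.0%, 0.845% and 5.24% of all genes). Around Cpm 12 were higher and 5 lower, around Slc28a2 12 and 20, around Bcl6 5 and 12, and around 2210407C18Rik 29 and 22. The nearest tested neighbors of Cpm, Cpsf6 (98.5 ± 9.31 against 97.5 ± 8.37 CPM), a factor of mRNA 3′ end processing, and Mdm2 (26.3 ± 3.4 against 24.1 ± 1.97 CPM), the ubiquitin ligase of p53, had log2 differences of 0.04 and -0.07. Cpm lies on the same chromosome as Lgr5, the locus that carries the reporter, and 2041720 bases separate them. Of the 20 genes tested between both, 12 were higher and 8 lower, none passed by edgeR or DESeq2, and 1 had an edgeR unadjusted p under 0.05, Ptprb, which was higher in aged mice (1.77, SE 0.77, edgeR adjusted p = 0.94).

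On either side of Slc28a2 lie Shf (-0.29, SE 0.37) and Bambi-ps1, a pseudogene at 0.0817 ± 0.0444 and 0.334 ± 0.169 CPM (2.07, SE 0.69, edgeR adjusted p = 0.801). Within the same window Duoxa2 (9.46 ± 3.31 against 4.5 ± 1.69 CPM, -1.02) and Duoxa1 (4.19 ± 1.61 against 1.93 ± 0.884 CPM, -1.07), maturation factors of the dual oxidases, had edgeR adjusted p values of 0.833 and 0.924. Next to Bcl6 were Sst, the somatostatin gene of endocrine cells (-3.08, SE 2.13) and Gm37419 (-1.61, SE 0.96), which overlaps Bcl6 on the opposite strand. Its 304 reads stand against 16948 of Bcl6, and without strand in the counts the reads of such a pair cannot be told apart. Next to 2210407C18Rik were Gm12254 (0.15, SE 0.26) and Trim58 (-1.43, SE 1.37), and within its window Lypd8, which encodes a protein secreted into the gut lumen, had a log2 difference of 0.43 (edgeR adjusted p = 0.801).

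**Figure D5:**
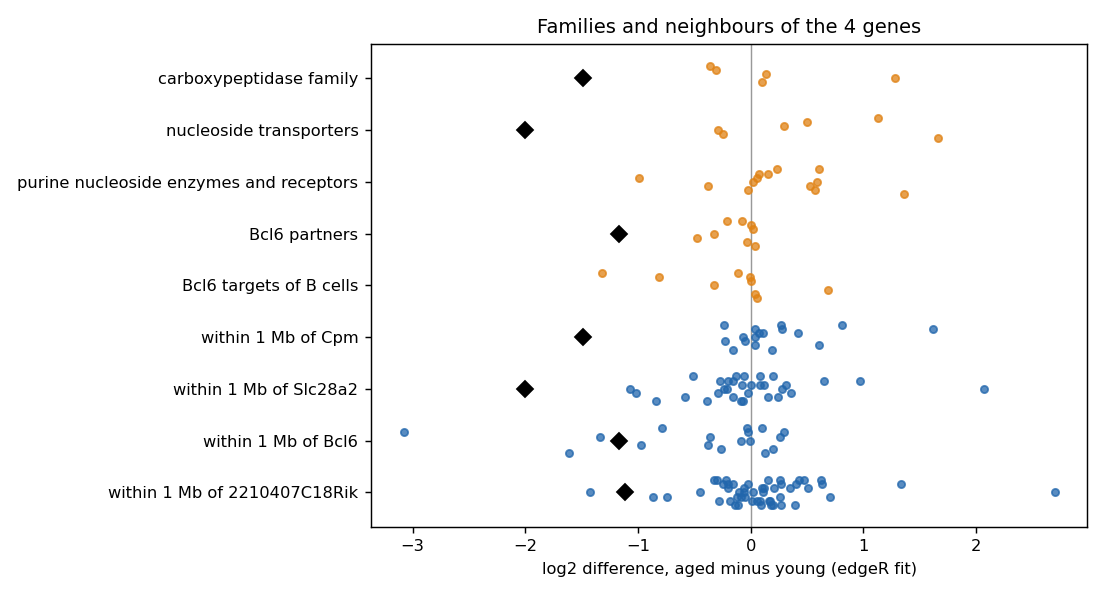
Log2 difference, aged minus young (horizontal axis, edgeR fit), of the tested genes of 5 families (orange) and of the genes within 1 Mb of each of the 4 genes (blue). Black diamonds are the 4 genes themselves, from -2.0 to -1.12. Family members and neighbors lie on both sides of 0, with a median of 0.02 over the family members.

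Genes of the circadian clock and of gut region were compared between ages as well. Of 15 clock genes tested 0 passed by edgeR and 1 by DESeq2, and 4 had an edgeR unadjusted p under 0.05, against 0.0%, 0.845% and 5.24% of all genes. These were the repressors Nr1d1 (102 ± 62.6 against 43.6 ± 9.46 CPM) and Nr1d2 (49.5 ± 12.2 against 29.6 ± 4.58 CPM), lower in aged mice, and Cry1 (3.32 ± 2.00 against 6.25 ± 0.827 CPM) and Nfil3 (10.8 ± 3.67 against 22.3 ± 4.00 CPM), higher, of which DESeq2 called Nfil3 (log2 difference 1.1, DESeq2 adjusted p = 0.00689). Of 5 proximal and 3 distal gut genes DESeq2 called the iron exporter Slc40a1 (4.98 ± 0.514 against 14.0 ± 4.45 CPM), named here after its value was seen, and edgeR none. Their part in the level of the 4 genes was not tested.

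The 4 genes were also compared with each other over the ISC-led cells of a mouse. The mean over 7 mice of the Spearman correlation between pairs of them was 0.0153 (Bcl6 and 2210407C18Rik) to 0.145 (Cpm and 2210407C18Rik), with 0.144 for Cpm and Slc28a2, above 0 in 7 of 7 mice. Points within a mouse share its library preparation and sequencing, and no p is given. Among 10770 genes with reads in at least 25% of ISC-led cells of every mouse, 2210407C18Rik was most like Tmprss2 (0.356), a membrane serine protease, Txnip (0.321), a thioredoxin-binding protein, Chp1 (0.313), a calcium-binding protein, Anpep (0.308), the brush border aminopeptidase N, and Muc4 (0.304), a membrane mucin. Cpm was most like Ivns1abp (0.296), Eef2 (0.29), the elongation factor of translation, Rnase4 (0.281), a secreted ribonuclease, Erbb3 (0.269), a receptor of neuregulins, and again Txnip (0.258). The values for Slc28a2 were lower, with Muc13 (0.171), a membrane mucin, Lgals4 (0.153), a galectin, Slc44a4 (0.149), Slc27a2 (0.147), a fatty acid transport protein, and P4hb (0.146), a protein disulfide isomerase, and lowest for Bcl6, with Wnk4 (0.129), Ldb1 (0.128), Ripor1 (0.121), Adipor1 (0.12) and Rbbp6 (0.119). Over all genes compared the median was 0.0586 for Cpm, 0.0251 for Slc28a2, 0.0231 for Bcl6 and 0.0584 for 2210407C18Rik, the 95th percentile 0.145, 0.0782, 0.0693 and 0.145, and the correlation with reads per cell -0.0121, 0.0307, 0.0207 and -0.123.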

How the data were processed

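Deposited values were raw read counts per gene and cell. Per the labels and methods, the authors sequenced Smart-seq2 libraries without molecular identifiers as single-end reads and aligned them to GRCm38 with HISAT2. HTSeq is also named in the submitters' processing notes, and neither versions nor the use of strand were stated for these files. Of 55471 gene IDs 55144 matched GENCODE M21, and 0.0307% of counts fell on the rest.

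A minimum of 1000 detected genes per cell was applied, and no doublet caller was run. A cell was assigned to the marker list with the highest mean log2(CPM + 1) of 8 lists, and 62 cells led by a margin under 0.5. Counts were summed per mouse, or per mouse and class, and fitted with edgeR 4.0.16 (TMM, filterByExpr, quasi-likelihood test, R 4.3.3), with Benjamini-Hochberg adjustment over all genes tested and a threshold of 0.05. By age the fit had no block, and between classes the mouse was a block. Intervals for shares are exact binomial at 95%. DESeq2 1.42.0, limma 3.58.1, other scalings, filters, class definitions and omissions were alternatives. Genes were named by these rules: the 4 genes, listed family members and neighbors with an unadjusted p under 0.05 (in a family without one, the 2 with the highest level), clock genes with such a p, the nearest tested gene on each side, and the 5 genes most like each member. The 4 genes and all lists were chosen with earlier results of these data known. Promoter sequences came from RefSeq, with 250 bases before and 50 after the start, and all 4 genes matched. Cells of a mouse are not replicates, and n counts mice. A gene that these rules would name is not reported here.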

Additional observations from a re-analysis of the deposited data

Results flagged for a closer look

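Of 47 sets of aged mice listed, 6 held a mouse whose gap to the nearest other mouse exceeded Dixon's critical value. The 47 include sets from enterocyte-led and goblet-led cells, which aged mouse 1 did not enter and which were not checked. In a set that was checked, chance alone gives about 1 in 20. Aged mouse 1 stood above the other aged mice in the share of cells with a read of Slc28a2 at 100000 reads (23.5%, against 6.16% to 8.38%). It also stood above them for 2210407C18Rik, in the median of cells with a read (239 CPM, against 66.0 to 88.8 CPM) and in the mean over cells (333 CPM, against 106 to 127 CPM). In aged mouse 2 the difference of Cpm by S-phase genes was -2.17, against -0.94 to -0.72 in the other aged mice. In aged mouse 3 the difference of Slc28a2 was 1.02 by S-phase genes, from 7 and 4 reads, and -2.44 by G2 and mitosis genes, from 8 and 29 reads. These values are given without an explanation.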

How the results depend on the processing

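The difference between ages kept its sign for each of the 4 genes under 19 alternatives, with log2 values of -2.09 to -1.23 for Cpm, -3.14 to -1.53 for Slc28a2, -2.29 (without aged mouse 1) to -0.82 for Bcl6 and -1.61 to -0.81 for 2210407C18Rik. The genes were chosen on this difference and the alternatives reuse the same mice, so the kept sign is a description and no support. The value of -3.14 for Slc28a2 came from leaving out the 5 cells with most reads of each mouse, an alternative chosen after seeing the data, as were total counts and equal weights for cells. The median of the 4 differences was -1.33, and -1.95 to -1.06 with 1 mouse left out. No family member, neighbor or interaction with age passed with any mouse left out (0 to 0). Over all genes few passed as well, from 0 to 8 of 21700 by age and from 0 to 74 of 17327 in the interactions.

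Of the 4 genes, 1 passed in enterocyte-led cells, but 2 with DESeq2, 2 without a filter on low counts, 0 at 100000 reads and 0 with limma voom, and 0 to 2 with 1 mouse left out. Of all 16681 genes 3217 passed, 4150 with DESeq2 and 3227 with limma voom. Without the filter 3442 of 33350 did, at 100000 reads 3561 of 14360, and with 1 mouse left out 1637 to 3663. With cells near the boundary of a class left out 2210407C18Rik passed there in place of Bcl6. In Paneth-led cells 1 passed, 2 at 100000 reads, 4 with total counts and 1 to 2 with 1 mouse left out. Of all 16755 genes 2350 passed, 11815 with total counts, 1876 of 14042 at 100000 reads and 1509 to 2103 with 1 mouse left out. In goblet-led cells 0 passed, 1 without the filter, and 0 to 1 with 1 mouse left out. Of all 16995 genes 395 passed, 582 of 32692 without the filter and 160 to 476 with 1 mouse left out. By S-phase genes 1 passed, and 0 to 1 with 1 mouse left out (0 without aged mouse 1). Of all 16140 genes 1656 passed, and 865 to 1904 with 1 mouse left out. By G2 and mitosis genes 2 passed, but 1 each with all cells, with a split at the median in place of terciles, without the filter and with total counts, 3 at 100000 reads, and 1 to 2 with 1 mouse left out. Of all 16257 genes 2556 passed, and 2559 with total counts. With all cells 2500 of 16259 did, and with the split at the median 1931 of 17517. Without the filter 2291 of 32326 did, at 100000 reads 3983 of 13152, and with 1 mouse left out 1793 to 2514. By Lgr5 0 passed, but 1 each with all cells, the split at the median and 100000 reads, 2 each with DESeq2, no filter, total counts and limma voom, and 0 to 1 with 1 mouse left out. Of all 17199 genes 2106 passed, 3776 with DESeq2, 2499 with limma voom and 3060 with total counts. With all cells 1761 of 17112 did, with the split at the median 1589 of 18330, and without the filter 2074 of 33737. At 100000 reads 2927 of 13682 did, and with 1 mouse left out 960 to 1678. The cause was not tested.

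Signs turned for Cpm in enterocyte-led cells (-0.38 at 100000 reads, -0.10 with total counts and -0.06 without aged mouse 3), for Slc28a2 in enterocyte-led cells (-0.49 without aged mouse 4), in Paneth-led cells (0.04 at 100000 reads and 0.47 with limma voom) and by Lgr5 (-0.11 with the split at the median and -0.20 at 100000 reads), and for Bcl6 by G2 and mitosis genes (0.07 with the split at the median). With 1 mouse left out the value in enterocyte-led cells was -0.06 to 0.43 for Cpm and -0.49 to 1.34 for Slc28a2. None of these was a call.

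Mice of the same number correlated at -0.16, 0.122 and -0.156 in their deviations from the group means, so no pairing by number was seen. Pairs that shared a lane correlated at 0.285 (young mouse 1, aged mouse 3), 0.122 (young and aged mouse 2) and 0.107 (young mouse 2, aged mouse 1). The other pairs ran from -0.206 to 0.095. With the lane as a block, where young mouse 2 entered in 2 lanes, the median difference of the 4 genes was -1.39 and edgeR called 1 of 20002 genes. With the replicate number as a block the median difference of the 4 genes was -1.51, and 0 family members and 0 neighbors passed, where 0 of all 20367 genes did. Over all genes edgeR called 0 by age, DESeq2 177, edgeR without the filter 22, at 100000 reads 15, without aged mouse 1 8 and limma voom 2. The interaction in goblet-led cells could not be fitted without young mouse 3.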
